A study of Mus musculus with 8 samples.

Results

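The genes described here encode the subunits, activators and assembly factors of the proteasome. They were chosen by name, as protein-coding mouse genes with a symbol of Psma to Psmg followed by a number, and 50 of the 39179 gene IDs in the files met that rule. The 5 immune members, Psmb8, Psmb9, Psmb10, Psme1 and Psme2, were set against the 45 others. Psmc3ip met the rule by name alone, since its product is a factor of homologous recombination and no proteasome subunit.

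Gene expression was measured by RNA sequencing in 8 libraries of CLPs (common lymphoid progenitors), the marrow cells from which B, T and natural killer cells develop. All cells came from C57BL/6 mice with no genetic change named, and were sorted as Lin- Flk2+ IL7R+ CD27+ Ly6d-. The 4 ex vivo CLP libraries came from freshly isolated cells. The 4 cCLP libraries came from cells cultured for 2 months on OP9, a mouse stromal cell line, with IL-7 at low dose and Flt3 ligand, and sorted by the same markers. The labels name no animal, culture, age or batch, so p-values measure only the spread between these libraries, which may be technical. Culture differs from fresh isolation in its medium, its stroma, its cytokines and its duration, and these cannot be told apart.

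The proteasome degrades proteins tagged with ubiquitin. Its core particle is a barrel of alpha and beta rings, in which Psmb5, Psmb6 and Psmb7 carry the catalytic sites, and the regulatory particle recognises, unfolds and feeds in the substrates. Under interferon gamma, and constitutively in many blood cells, the catalytic subunits are replaced by Psmb8 (for Psmb5), Psmb9 (for Psmb6) and Psmb10 (for Psmb7). Psme1 and Psme2 form the PA28 activator, which caps the barrel and is induced by the same cytokine. The resulting immunoproteasome is known for producing peptides that MHC class I molecules present.

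Of the 50 genes, 42 had an entry in the RefSeq promoter table (GRCm38.p6; Psma8, Psmb1, Psmb2, Psmb7, Psmc3, Psmd3, Psmd7 and Psmg2 had none), and the 250 bases before their starts were searched on both strands for 3 short motifs, chosen because factors known to act on proteasome genes bind such elements. The motif GAAANNGAAA, the core of an interferon response element, was found in 2.98% of all 32851 promoters, in 3 of the 42 proteasome genes and in 0 of the 5 immune members. The motif TTCNNNGAA, the core of a gamma activated site bound by STAT factors, was found in 7.02% of all promoters and in Psmb8 and Psmg1. The motif TGACNNNGC, the core of an antioxidant response element, was found in 10.16% of all promoters, in 5 of the 42 and in 0 of the 5 immune members. A selection of the matches is shown here, with the motif or its reverse complement in capitals: those of called members and of Psmb5 and Psmb6, and Psmb3 as an example of the interferon motif. Those of Psmc6, Psmd4 and Psmd9 are not shown. They are matches of letters only, and a missing match says only that these letters are not in the window.
Psmb8, gamma activated site core, chr17:34198088-34198116, + strand: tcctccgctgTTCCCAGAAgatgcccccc
Psmg1, gamma activated site core, chr16:95991185-95991210, - strand: actcatgTTCTCTGAAtccgcttgca
Psmb5, antioxidant response element core, chr14:54618024-54618052, - strand: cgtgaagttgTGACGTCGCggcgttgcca
Psmb6, antioxidant response element core, chr11:70525338-70525356, + strand: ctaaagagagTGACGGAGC
Psmd12, antioxidant response element core, chr11:107479278-107479299, + strand: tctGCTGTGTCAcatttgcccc
Psmb3, interferon response element core, chr11:97703261-97703290, + strand: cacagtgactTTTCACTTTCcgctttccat
The Psmb8 match lay 89 to 97 bases before the RefSeq start. That place is inside the annotated Psmb8 gene (chr17:34197721-34201454, + strand) and not upstream of it. The window of Psmb9 (RefSeq start 34187330, - strand) likewise lay inside its annotated gene, which reaches 34187764. In Psmb6 the match ended at the last base before the start, and in Psmb5 it lay 39 to 47 bases before it. Among the immune members only Psmb8 had a match. The longer stretch before Psmb10 is shown as an example of those with no match to any of the 3 motifs. It holds 198 of the 250 bases searched and leaves out those nearest to the RefSeq start.
Psmb10, chr8:105938445-105938642, - strand: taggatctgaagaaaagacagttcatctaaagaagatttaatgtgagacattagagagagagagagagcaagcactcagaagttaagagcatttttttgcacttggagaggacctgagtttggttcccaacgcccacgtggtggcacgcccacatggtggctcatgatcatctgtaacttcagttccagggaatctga

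The values are whole-number scores on a scale that no label names, so depth is unknown, and they are compared here between libraries and not between genes. The sums ran from 378594 to 704305 per library, and the 50 proteasome genes took 0.774% to 0.876% of them. Whole profiles placed ex vivo CLP 2 beside the cCLP libraries and cCLP 1 beside the ex vivo ones, against their labels. Over 8479 genes without the members, the rank correlation (Spearman's rho, across genes, which are not independent replicates) of ex vivo CLP 2 was 0.966 to 0.987 with cCLP 2, 3 and 4 and 0.771 to 0.831 with the other ex vivo libraries. For cCLP 1 it was 0.954 to 0.980 with ex vivo CLP 1, 3 and 4 and 0.813 to 0.824 with the other cCLP libraries. Each result is therefore given over all 8 libraries as labelled and over the 6 others (ex vivo CLP 1, 3 and 4 against cCLP 2, 3 and 4), and no library was moved. Values by library are listed in the order of replicates 1 to 4. The 6 were chosen by where whole profiles lay, so the 6-library p-values come after a choice made on these data.

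As labelled, over all 8 libraries, 0 of the 43 proteasome genes that passed the filter on low values changed at an adjusted p below 0.05, against a background of 0.0% of the 6486 genes tested with limma. The smallest adjusted p of any gene was 0.483, and 1 member (Psmb6) and 481 genes in all (7.42%) had an unadjusted p below 0.05. Values of the 5 immune members were lower in the cCLP mean without passing the test, with log2 fold changes (cCLP minus ex vivo CLP, on log2(scaled value + 1)) of -0.51 for Psmb8, -0.59 for Psmb9, -0.59 for Psmb10, -0.42 for Psme1 and -0.42 for Psme2 (adjusted p = 0.483 for each). Their median was -0.51, beside -0.07 for the 38 other members tested and -0.004 for all genes. The groups did not overlap for 3 members, Psmb6, Psmd6 and Psmd2, where 3.48% of all genes did not.

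**Figure D1:**
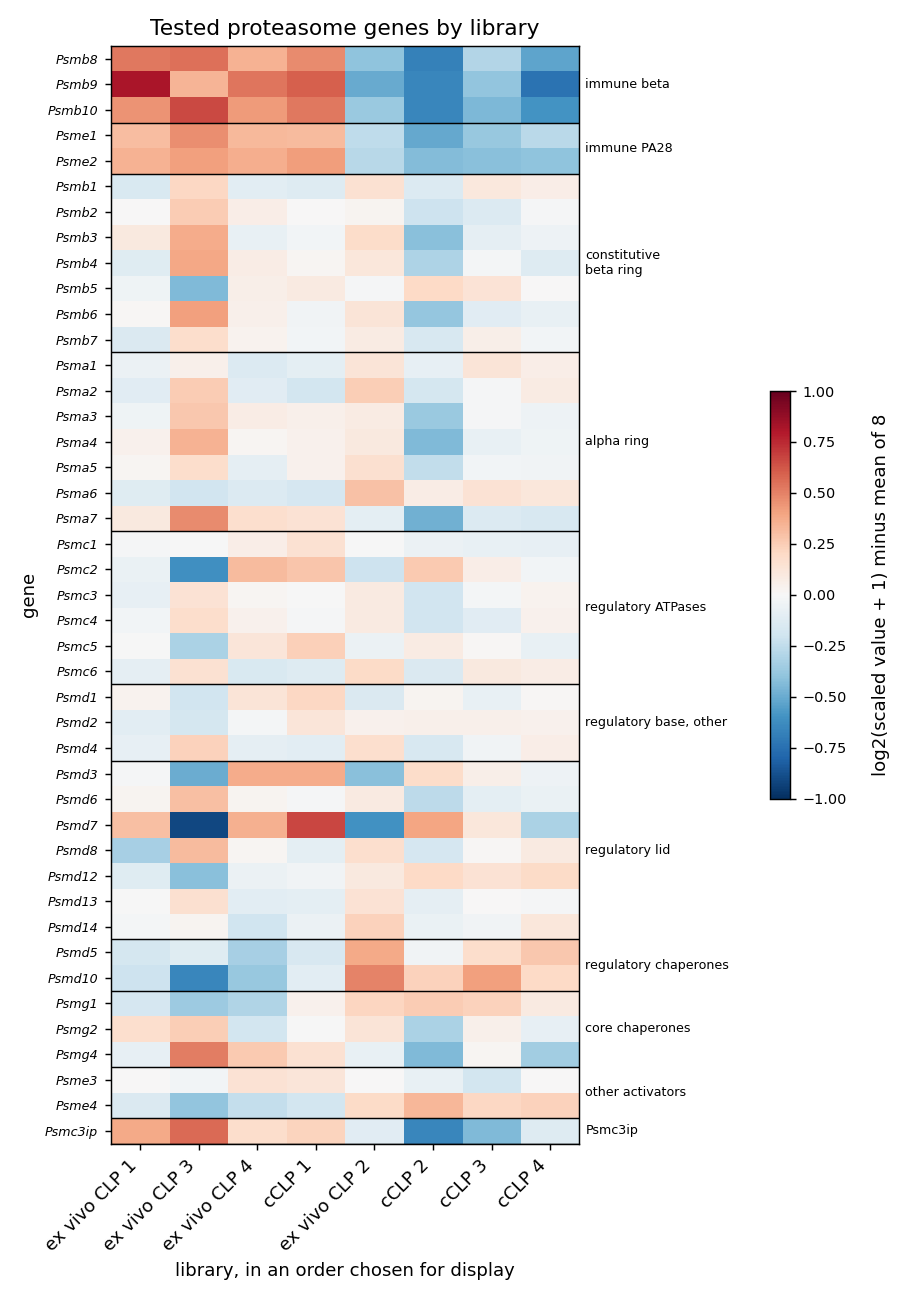
Scaled values of the 43 tested proteasome genes (rows, by role) in the 8 libraries (columns, in an order chosen for display), as log2(scaled value + 1) minus the gene's mean over the 8 libraries. Colours end at -1 and 1. The 5 immune rows at the top are high in ex vivo CLP 1, 3 and 4 and cCLP 1 and low in the other 4 libraries, while most rows of the constitutive rings and regulatory particle do not show that split. Psma7 and Psmc3ip show it too, and Psma6, Psmd12, Psmd10, Psmd5, Psme4 and Psmg1 show it in reverse.

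Without the pair of libraries that went against their labels, the immunoproteasome genes were lower in culture and most other proteasome genes did not pass the test. All 5 immune members fell in cCLP, where 22.3% of the 6573 genes tested fell and 20.7% rose, with log2 fold changes from -1.16 to -0.75 and a median of -0.98. Of the 38 other members tested, 6 rose and 2 fell, with a median of -0.05 (0.004 over all genes). In total 13 of 43 members changed, beside 42.9% of all genes. The groups did not overlap for 19 members, the 5 immune ones among them, beside 55.7% of all genes. The share of members called or separated was thus below that of all genes. The difference between the immune members and the others has no test here beyond the ratios of pairs given below.

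Psmb8, which takes the place of Psmb5, had scaled values of 214.7, 112, 217 and 189.5 in the ex vivo libraries and of 206.5, 92.4, 121 and 102.7 in the cCLP libraries. The levels formed a high set of 4 libraries and a low set of 4, with ex vivo CLP 2 in the low set and cCLP 1 in the high one, so the labelled groups overlapped. Over the 6 libraries Psmb8 fell from 209 ± 15.5 to 106 ± 14.6 (SD, n = 3), a log2 fold change of -0.98 (SE 0.12, adjusted p = 0.000474), or 1.97-fold lower. The gene lies at chr17:34197721-34201454 (GRCm38, + strand), in the MHC region.

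Psmb9, which takes the place of Psmb6, had 56.8, 22.2, 40.5 and 46.5 in the ex vivo libraries and 48.8, 19.9, 24.0 and 18.7 in the cCLP libraries. It showed the same high and low libraries as Psmb8. Over the 6 libraries it fell from 48.4 ± 8.29 to 21.1 ± 2.82 (SD, n = 3), a log2 fold change of -1.16 (SE 0.15, adjusted p = 0.000465), the lowest estimate among the 43 members. Psmb9 (chr17:34181987-34187764, - strand) and Tap1 (chr17:34187553-34197225, + strand), a peptide transporter gene, stand head to head with RefSeq starts 225 bases apart. Their annotated exons overlap on opposite strands, and since the strand setting of the counting is not given in the sources used here, reads from the overlap cannot be told apart.

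Psmb10, which takes the place of Psmb7, had 104.9, 58.9, 121.6 and 103.1 in the ex vivo libraries and 110.9, 48.3, 55.7 and 50.1 in the cCLP libraries. Again ex vivo CLP 2 was low and cCLP 1 high. Over the 6 libraries it fell from 111 ± 10.3 to 51.9 ± 3.91 (SD, n = 3), a log2 fold change of -1.08 (SE 0.11, adjusted p = 0.000106). Psmb10 lies on another chromosome (chr8:105935735-105938444, - strand), away from the MHC region that holds Psmb8 and Psmb9.

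Both chains of the PA28 activator fell as well, with estimates nearer to 0 than those of the 3 beta subunits. Psme1 had 161.6, 108.9, 180.6 and 163.4 in the ex vivo libraries and 162.5, 91.3, 99.9 and 107.8 in the cCLP libraries, and over the 6 libraries it fell by 0.75 on the log2 scale (SE 0.10, adjusted p = 0.000709). Psme2 had 103.7, 66.7, 108.1 and 104.6 in the ex vivo libraries and 109.0, 59.8, 60.5 and 61.1 in the cCLP libraries, and fell by 0.79 (SE 0.08, adjusted p = 0.000162). Within the 6 libraries its groups were tight, at 107 ± 2.37 and 61.1 ± 0.637 (SD, n = 3). The Psme2 value is uncertain in part, because the gene shares sequence with Psme2b, a near copy that stayed under the filter at 4.44 to 10.5. Of the 763 runs of 75 bases in Psme2b, 459 (60.2%) also occur in Psme2. The share of Psme2 runs that occur in Psme2b was not computed. The fall of these 5 genes in bulk RNA cannot tell fewer cells that express them from less RNA per cell.

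**Figure D2:**
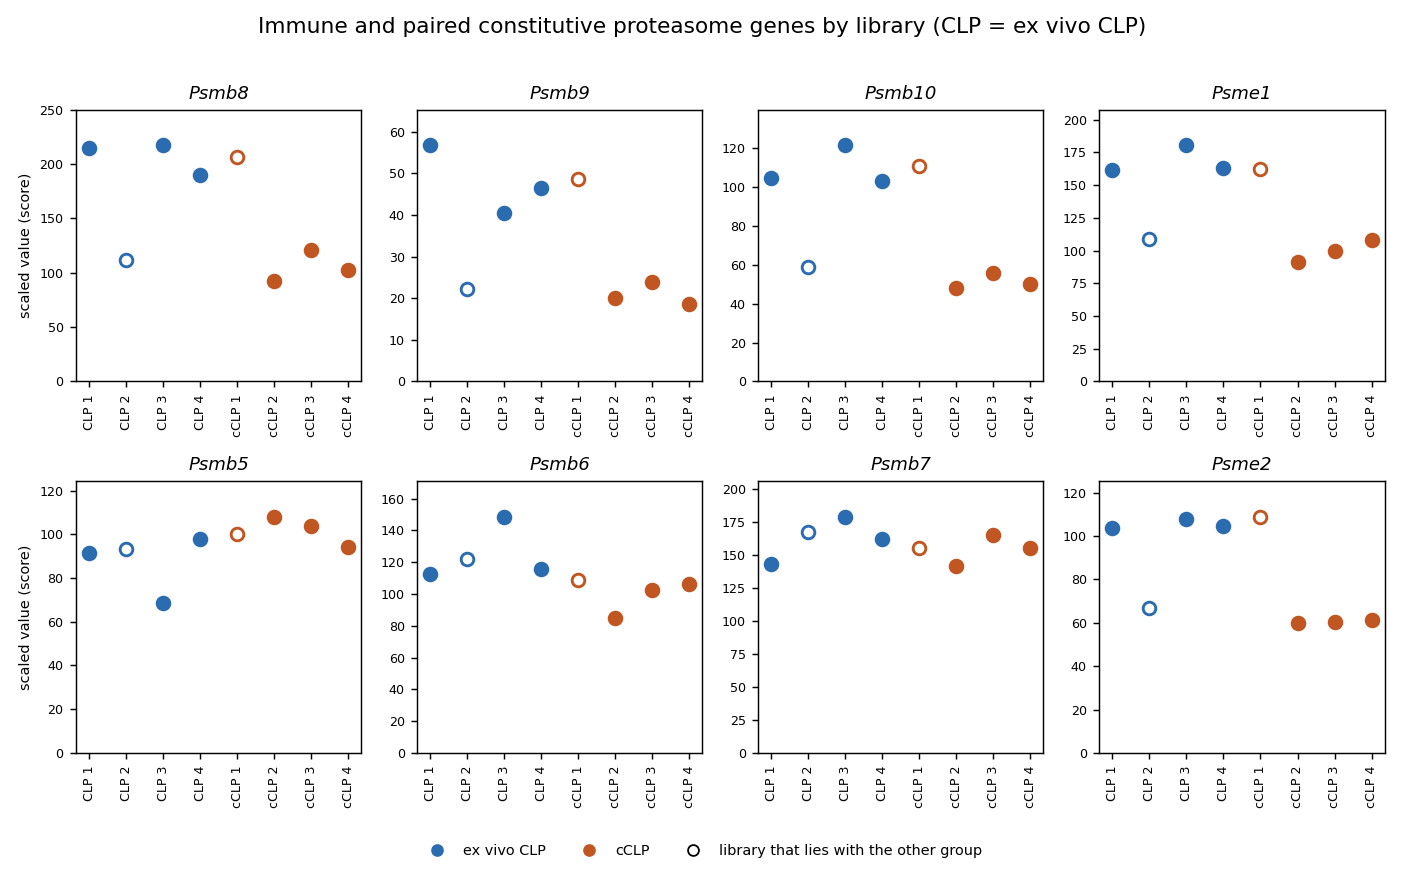
Scaled values (score, axis from 0) of the 5 immune members and of Psmb5, Psmb6 and Psmb7 in each library, in blue for ex vivo CLP and orange for cCLP, with open circles for the 2 libraries that went against their labels (ex vivo CLP 2, cCLP 1). In each immune panel 4 libraries are high and 4 are low, with the open circles on the side of the other label. In the Psmb5, Psmb6 and Psmb7 panels no such gap appears.

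The constitutive catalytic subunits did not pass the test over the 6 libraries, and intervals of their differences are given instead. Psmb5 had 91.3, 93.3, 68.8 and 98.0 in the ex vivo libraries and 100.4, 108, 103.7 and 94.2 in the cCLP libraries, a log2 fold change over the 6 libraries of 0.26 (95% interval -0.07 to 0.58, adjusted p = 0.183). Psmb6 had 112, 122, 149 and 115 in the ex vivo libraries and 109, 85.0, 103 and 106 in the cCLP libraries, a log2 fold change of -0.35 (95% interval -0.67 to -0.03, adjusted p = 0.0779). It passed under scaling by the sum of values (-0.31, adjusted p = 0.0429). Psmb7 had 143, 168, 179 and 163 in the ex vivo libraries and 156, 142, 165 and 155 in the cCLP libraries, a log2 fold change of -0.07 (95% interval -0.34 to 0.20, adjusted p = 0.678). Its sign turned, to 0.011, without ex vivo CLP 3. For Psmb8, Psmb9 and Psmb10 the intervals lay at -1.26 to -0.69, -1.49 to -0.82 and -1.33 to -0.84, each wholly below the interval of the subunit that it replaces. These separate intervals share the same 6 libraries and are no test of the difference within a pair.

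The ratio of each immune subunit to the subunit it replaces was compared within libraries, where no scaling factor enters. The log2 ratio of Psmb8 to Psmb5 was 1.22, 0.26, 1.64 and 0.95 in the ex vivo libraries and 1.03, -0.22, 0.22 and 0.12 in the cCLP libraries. The log2 ratio of Psmb9 to Psmb6 was -0.97, -2.40, -1.84 and -1.30 in the ex vivo libraries and -1.15, -2.04, -2.05 and -2.45 in the cCLP libraries. These ratios compare libraries for the same pair, and their level says nothing about which subunit is more abundant. The log2 ratio of Psmb10 to Psmb7 was -0.44, -1.49, -0.56 and -0.65 in the ex vivo libraries and -0.49, -1.53, -1.55 and -1.62 in the cCLP libraries. Over the 8 libraries the differences in mean log2 ratio (cCLP minus ex vivo CLP) were -0.73, -0.29 and -0.51 for the 3 pairs in that order. Exact two-sided permutation tests over the libraries gave p = 0.114, 0.457 and 0.257, or 0.343, 0.457 and 0.386 adjusted over the 3 pairs, where the smallest p that 4 against 4 allows is 0.0286. Over the 6 libraries the differences were -1.23, -0.81 and -1.02 and the groups did not overlap, but 3 against 3 cannot go below p = 0.1, the exact value of each pair.

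**Figure D3:**
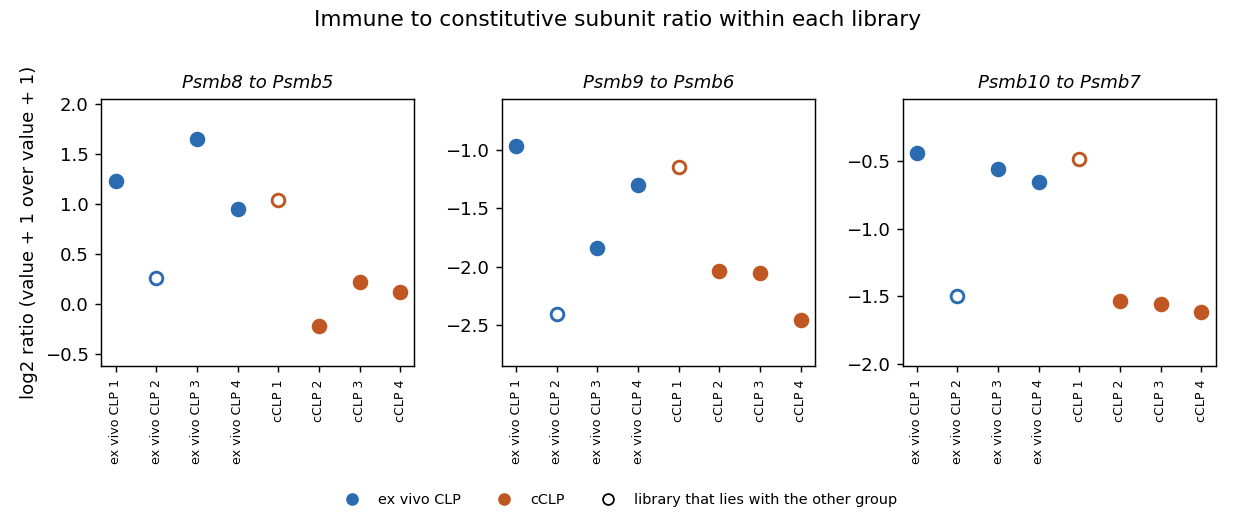
Log2 ratio of an immune subunit to the constitutive subunit it replaces, on log2((value + 1)/(value + 1)), in each of the 8 libraries for 3 pairs, with open circles for ex vivo CLP 2 and cCLP 1. Filled ex vivo CLP points lie above filled cCLP points in all 3 panels, with the widest gap relative to the spread for Psmb10 to Psmb7.

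Few of the remaining core subunits passed the test. Of the 14 alpha and constitutive beta subunits tested, 1 rose and 1 fell over the 6 libraries, beside 20.7% and 22.3% of all genes. The median log2 fold change of the 14 was -0.18, with a range of -0.50 to 0.26. Psma7, an alpha subunit, fell by 0.50 (SE 0.14, adjusted p = 0.0199) over the 6 libraries. Its scaled values were 92.5, 81.1, 120 and 97.3 in the ex vivo libraries and 95.6, 61.9, 78.7 and 77.2 in the cCLP libraries, so the 4 lowest were cCLP 2, 3 and 4 and ex vivo CLP 2. The call was lost without cCLP 2 (adjusted p = 0.0941). Psma6, an alpha subunit, rose by 0.26 (adjusted p = 0.0486), a call lost without any 1 of the 6 libraries (adjusted p 0.0533 to 0.166) and under 4 other settings. As a description, the mean log2 level of the 5 immune members minus that of the 14 core subunits was -0.14, -1.15, -0.38 and -0.26 in the ex vivo libraries and -0.18, -1.03, -1.05 and -1.16 in the cCLP libraries. That difference lay between -0.38 and -0.14 in 4 libraries and between -1.16 and -1.03 in the other 4.

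The regulatory particle, whose ATPases unfold substrates and whose lid removes ubiquitin, had a median log2 fold change of 0.02 over its 16 tested subunits. In it 1 subunit rose and 0 fell with limma, beside 20.7% and 22.3% of all genes. An unadjusted p below 0.05 was found for 2 subunits, beside 50.6% of all genes. All 6 ATPases (Psmc1 to Psmc6) missed the threshold, and the lid subunit that rose was Psmd12, by 0.38 (SE 0.11, adjusted p = 0.0282). Its call was lost without ex vivo CLP 3 or without cCLP 2, 3 or 4 (adjusted p 0.0527 to 0.0855), and with scaling by the sum of values (adjusted p = 0.0567). Psmd7, a lid subunit, had the largest spread within a group, with scaled values of 38.3, 20, 16.0 and 39.9 in the ex vivo libraries and 49.7, 40.9, 33.6 and 24.6 in the cCLP libraries. The groups overlapped, with a log2 fold change over the 6 libraries of 0.15 (SE 0.35). Across the 43 members the median SD of log2 values was 0.16 among the 3 ex vivo libraries of the 6 and 0.12 among the 3 cCLP libraries (0.17 and 0.11 over all genes).

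Of the 6 members that rose, 3 were assembly chaperones (Psmd10, Psmd5 and Psmg1), 1 was an alternative activator (Psme4) and 2 were subunits. Psmd10, known as gankyrin, and Psmd5 are chaperones of the regulatory particle base. Both of the 2 tested members of that role rose, beside 20.7% of all genes, and Psmd9, of the same role, stayed under the filter. Of the 3 tested chaperones of core particle assembly 1 rose and 0 fell, with a median log2 fold change of -0.19. Psmd10 had 22.2, 36.7, 16.0 and 19.6 in the ex vivo libraries and 23.9, 30.4, 34.6 and 29.7 in the cCLP libraries. Apart from ex vivo CLP 2, no ex vivo value reached the lowest cCLP value. It rose by 0.69 (SE 0.13, adjusted p = 0.00405), the highest estimate among the members. Psmd5 rose by 0.35 (adjusted p = 0.0373), a call lost without ex vivo CLP 1 or 4 or without cCLP 3 or 4 (adjusted p 0.0598 to 0.138).

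Psme4 encodes PA200, a nuclear activator that caps the core in place of the regulatory particle. It had 14.8, 18.9, 12.3 and 13.8 in the ex vivo libraries and 14.3, 21.0, 19.2 and 19.5 in the cCLP libraries, and over the 6 libraries it rose by 0.52 (SE 0.11, adjusted p = 0.00552). Psme3, the nuclear PA28 gamma activator that is not part of the interferon response, had a log2 fold change of -0.12 (95% interval -0.35 to 0.10, adjusted p = 0.340). So of the 4 activator genes tested, the 2 immune ones fell, Psme4 rose and Psme3 did not pass. Psmg1, a chaperone of core particle assembly, had 29.6, 38.9, 25.8 and 26.9 in the ex vivo libraries and 34.4, 39.9, 39.4 and 35.6 in the cCLP libraries, and rose by 0.47 (SE 0.10, adjusted p = 0.00631). It is the 1 called member of the 13 in which cCLP 1 was not nearer to ex vivo CLP 1, 3 and 4. Psmg4, another chaperone of the core, had a log2 fold change of -0.49 (adjusted p = 0.0549). Without cCLP 3 or without cCLP 4, the number of members that rose over the 6 libraries went from 6 to 3.

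Psmc3ip, the gene that meets the rule by name alone, had 16.0, 11.1, 18.4 and 13.8 in the ex vivo libraries and 14.3, 7.35, 8.64 and 11.0 in the cCLP libraries. It fell by 0.78 over the 6 libraries (SE 0.17, adjusted p = 0.00644), but it passed the filter through the ex vivo libraries, with 3 of 3 at 10 or more against 1 of 3 in cCLP. Its exons, like those of Psmb7 and Psmd13, overlap an expressed gene on the opposite strand (Mlx for Psmc3ip, Nek6 for Psmb7, Sirt3 for Psmd13), with the same limit on telling reads apart. Without Psmc3ip, 12 proteasome genes changed, 6 in each direction. The 7 members under the filter were Psma8 (scaled values 0 to 5.08), Psmd11 (4.91 to 9.56), Psmd9 (7.37 to 10.2), Psme2b, Psmf1 (7.35 to 9.83), Psmg3 (6.14 to 8.89) and Psmb11, the subunit of the thymus proteasome, which is listed at 0 in all 8 libraries.

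**Figure D4:**
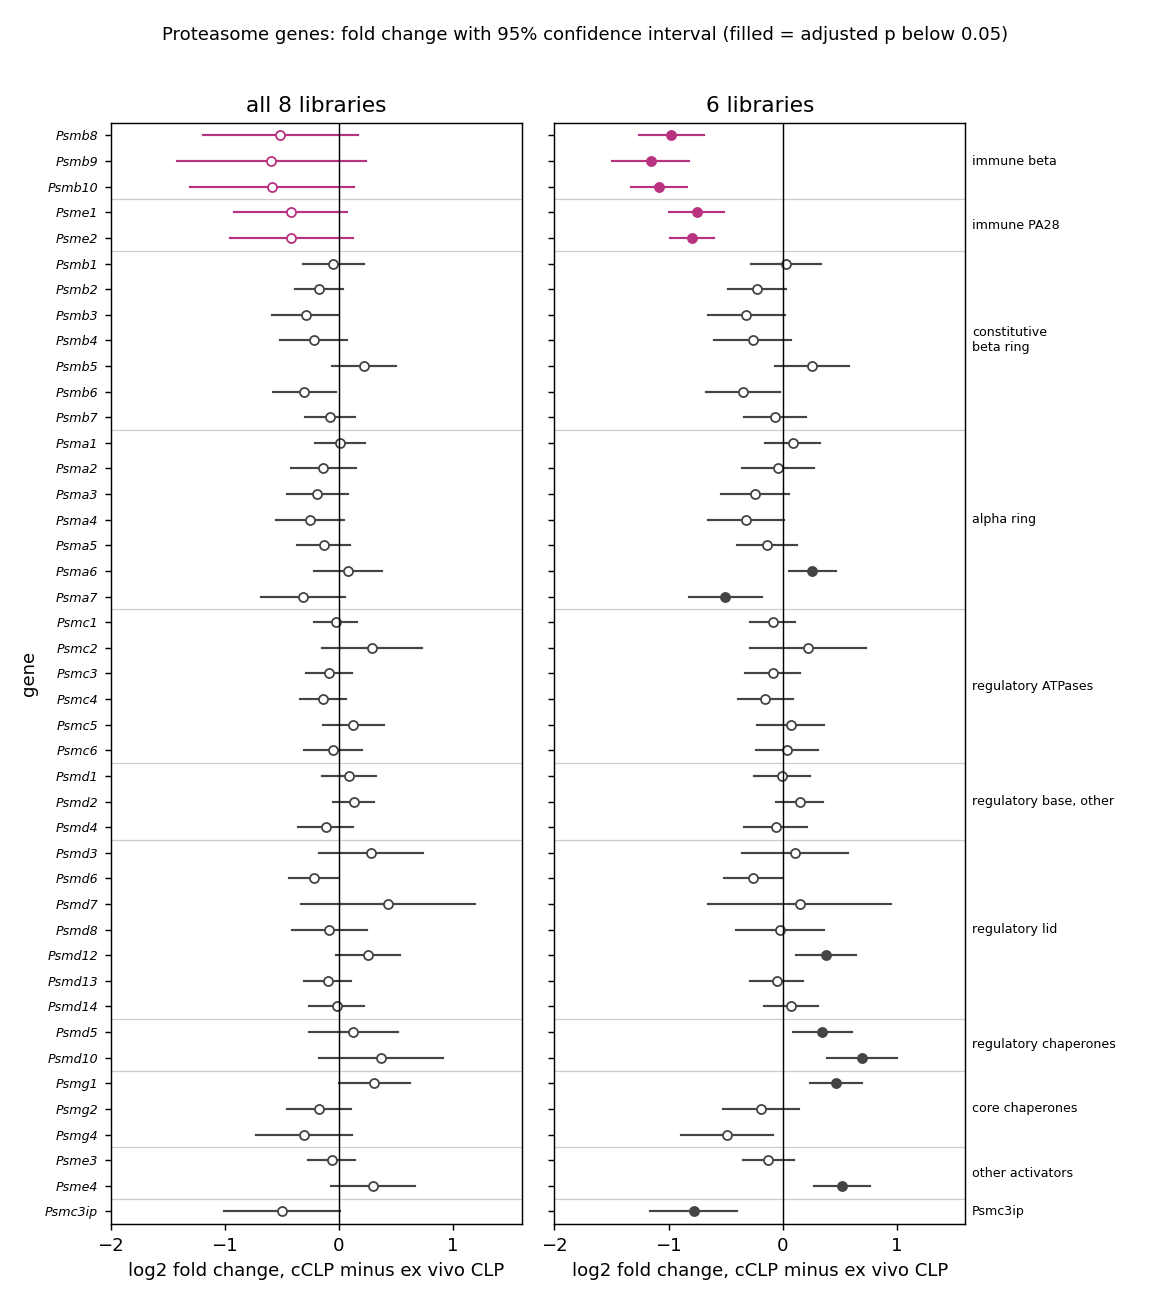
Log2 fold change (cCLP minus ex vivo CLP, on log2(scaled value + 1)) of the tested members over the 8 libraries as labelled and over the 6 libraries, with bars for the 95% confidence interval of limma, filled points for an adjusted p below 0.05 and the immune members in magenta. Over the 6 libraries the 5 immune members lie from -1.16 to -0.75, and the other members from -0.78 to 0.69.

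Genes that act with the proteasome passed the test in both directions. Of 21 partners tested (ubiquitin receptors, shuttles, deubiquitinases and assembly helpers), 4 rose and 3 fell over the 6 libraries, where 20.7% of all genes rose and 22.3% fell. Usp14, a deubiquitinase on the regulatory particle, rose by 0.78 (adjusted p = 0.00102), with scaled values of 17.3, 23.3, 13.5 and 16.7 in the ex vivo libraries and 19.1, 27.3, 28.8 and 27.2 in the cCLP libraries. Ube3c, a ubiquitin ligase of the proteasome, and Ubqln1, a shuttle, rose by 0.44 (adjusted p = 0.0329) and 0.34 (adjusted p = 0.0223), and both calls were lost without cCLP 2, cCLP 3, cCLP 4 or ex vivo CLP 3, and for Ube3c also without ex vivo CLP 4. Zfand2a, a heat-shock-induced proteasome adaptor, fell by 1.40 (adjusted p = 0.00102), Fbxo7, a ubiquitin ligase subunit, by 1.08 (adjusted p = 0.00038) and Zfand5, an activator of the proteasome, by 0.98 (adjusted p = 7.69e-05). Zfand2a and Fbxo7 were at 10 or more in 3 of 3 ex vivo and 0 of 3 cCLP libraries, so they passed the filter through the ex vivo libraries alone. Pomp, which helps the core mature, had a log2 fold change of 0.01 (adjusted p = 0.942).

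Nfe2l1 and Nfe2l2, regulators of constitutive proteasome genes, did not pass, with log2 fold changes of 0.06 (adjusted p = 0.814) and 0.08 (adjusted p = 0.719). Of 4 regulators tested 1 fell over the 6 libraries, beside 22.3% of all genes. This regulator was Stat3, which fell by 0.42 (adjusted p = 0.0206), a call lost without ex vivo CLP 4 or without any of the 3 cCLP libraries. Where 20.7% of all genes rose and 22.3% fell, 1 of 5 ubiquitin and E1 enzyme genes tested rose and 0 fell with limma. Of the 5, 2 had an unadjusted p below 0.05, beside 50.6% of all genes. The gene that rose was Uba6, a ubiquitin-activating enzyme, by 0.42 (adjusted p = 0.0433), a call lost without ex vivo CLP 4 or any cCLP library. It passed the filter through the cCLP libraries alone, with 0 of 3 ex vivo libraries at 10 or more.

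The interferon gamma pathway, which is known to induce the immune subunits, had 1 gene that rose and 5 that fell of 8 tested over the 6 libraries, beside 20.7% and 22.3% of all genes. Irf1, a factor that binds interferon response elements, had 66.6, 11.1, 103.2 and 97.3 in the ex vivo libraries and 85.1, 11.5, 12.5 and 11.0 in the cCLP libraries, and fell by 2.80 over the 6 libraries (adjusted p = 5.06e-06). The high and the low libraries were those of Psmb8. Irf8, a factor of myeloid and dendritic cells, fell by 4.63 (adjusted p = 5.04e-07), and Nlrc5, the activator of MHC class I genes, fell by 2.29 (adjusted p = 4.55e-05). Both were under 10 in all 3 cCLP libraries and passed the filter through the ex vivo libraries alone. Ifngr2, a chain of the interferon gamma receptor, rose by 0.75 (adjusted p = 0.000858), with 2 of 3 ex vivo libraries at 10 or more, and the other chain, Ifngr1, had a log2 fold change of -0.02 (adjusted p = 0.914).

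Peptide loading, the step that follows the proteasome in antigen presentation, had 6 genes that fell and 0 that rose of 9 tested over the 6 libraries, beside the same background of 22.3% and 20.7%. B2m, the light chain of MHC class I, fell by 1.71 (adjusted p = 6.02e-05), Tapbpl, a peptide editor, fell by 1.58 (adjusted p = 5.68e-05) and Tap1 by 1.36 (adjusted p = 4.03e-05). Tapbpl was under 10 in all 3 cCLP libraries and passed the filter through the ex vivo ones alone. Tap1 had 87.6, 32.2, 79.8 and 71.9 in the ex vivo libraries and 78.4, 27.3, 32.6 and 31.4 in the cCLP libraries, the same high and low libraries as Psmb9 beside it. Tap2, the partner chain of the transporter (chr17:34203527-34216321), lies in the same stretch as Psmb8 and Psmb9 and had a log2 fold change of -0.14 (adjusted p = 0.603). It passed without ex vivo CLP 3 (-0.38, adjusted p = 0.0232). Over the 8 libraries 0 genes of these lists passed. An unadjusted p below 0.05 was found for 3 of 21 partners and 1 of 9 peptide loading genes, beside 7.42% of all genes.

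**Figure D5:**
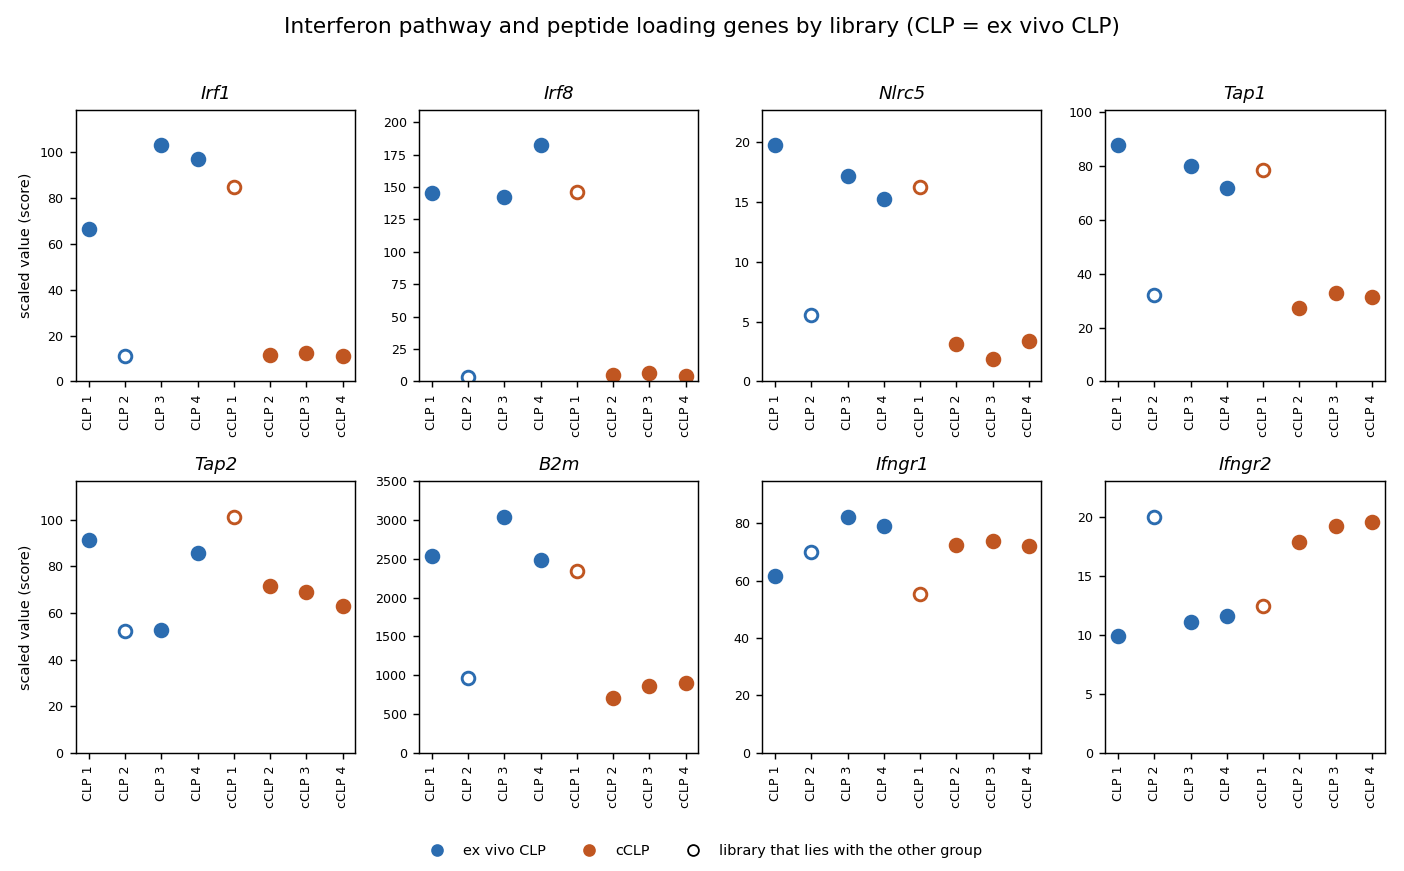
Scaled values (score, axis from 0) of 8 genes of the interferon pathway and peptide loading in each library, in blue for ex vivo CLP and orange for cCLP, with open circles for ex vivo CLP 2 and cCLP 1. For Irf1, Irf8, Nlrc5, Tap1 and B2m 4 libraries are high and 4 low, for Ifngr2 the order is reversed, and Tap2 and Ifngr1 show no gap.

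The summed markers of several other cell types moved with the same libraries. Those of the B lineage did so apart from ex vivo CLP 2, and those of OP9 stroma did not. The part of these markers in the change of the immune members was not tested. The summed scaled value of 13 myeloid markers was 1449 to 3188 in the 3 ex vivo libraries of the 6 and 266 to 298 in the 3 cCLP libraries, where 9 of the 13 (Elane, Ctsg, Csf1r, Csf3r, S100a8, S100a9, Ngp, Ltf and Camp) were listed at 0. All but Mpo were under 10 in each of those 3 cCLP libraries and could pass the filter through the ex vivo libraries alone, so the number of them called is not given. Psmb8 was at 214.7, 112, 217 and 189.5 in the ex vivo libraries, where the myeloid sum was 1449, 169, 3188 and 3054. In the cCLP libraries Psmb8 was at 206.5, 92.4, 121 and 102.7, where the myeloid sum was 1735, 266, 285 and 298. The sum of 15 interferon-stimulated genes, which include Irf1, was 241.8 to 265 and 37.8 to 43.2. Of its 6 tested genes, 4 (Gbp2, Gbp3, Irf7 and Oas1a) passed the filter through the ex vivo libraries alone. For 11 dendritic markers the sum was 742 to 819 and 620 to 646, with members that moved apart. Of them 7 fell and 2 rose, beside 22.3% and 20.7% of all genes. However, 6 of the 7 that fell were under 10 in all 3 cCLP libraries and passed the filter through the ex vivo ones alone. Ccr9, which rose, passed it through the cCLP ones alone, so these counts depend on the filter. Ccr9, a chemokine receptor, was at 4.36 to 8.64 in those 3 ex vivo libraries and at 231 to 260 in those 3 cCLP ones. For 8 T and NK markers the sum was 46.9 to 63.2 and 4.20 to 11.5, of which Nkg7 alone made 44.4 to 61.7 and 4.20 to 11.5. For 8 B lineage markers it was 34.9 to 43.2 and 15.4 to 27.2. Among them Cd79b was at 31.2 to 39.5 and 1.05 to 3.39, while Cd79a was at 0.726 to 1.23 and 6.72 to 13.6 and Ebf1 at 0 to 1.23 and 5.76 to 7.64. In ex vivo CLP 2, a low library for the immune members, the B lineage sum was 48.9 and Cd79a was at 30.0. For 6 erythroid markers the sum was 8.64 to 43.0 and 4.24 to 7.68. For 9 markers of OP9 stroma it was 9.83 to 16.0 and 10.6 to 18.9, and 5 of them (Col1a1, Col1a2, Col3a1, Cxcl12 and Sparc) were listed at 0 in all 8 libraries. Fn1, another of the 9, was at 0 to 0.726 in those 3 ex vivo libraries and at 5.94 to 11.5 in those 3 cCLP ones. Of the sort markers, Flt3 and Cd27 were present in every library at 209 to 283 and 62.2 to 104.9. Il7r was at 17.2 to 75.3 in the same 3 ex vivo libraries and at 196 to 224 in the 3 cCLP libraries. Ly6d, which the gate excludes, was at 29.8 to 34.5 in the former and at 0.849 to 1.05 in the latter.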

How the data were processed

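RNA of sorted cells was sequenced as paired reads after depletion of ribosomal RNA, per the labels' protocols. The submitters' processing notes name TopHat2, Bowtie2, HTSeq 1.0.6 and GRCm38 (mm10), without roles. The authors deposited a score per Ensembl gene: whole numbers whose dispersion index between libraries of a group was 0.236 to 0.716 without ex vivo CLP 2 and cCLP 1 (2.02 to 2.98 for pairs with either), where simulated counts gave 0.983 to 1.02. They were therefore not treated as counts, and no depth, counting interval or floor is given (intervals are limma's). Of the IDs, 37607 matched GENCODE vM21.

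Libraries were scaled by trimmed means of log ratios (30% of ratios, 5% of levels). Values by library use factors from all 8 libraries, and means and fold changes over 6 libraries use factors from those 6. Genes with a scaled value of at least 10 in no fewer libraries than the smaller group has were fitted on log2(scaled value + 1) with limma 3.58.1 (trend, robust) in R 4.3.3, two-sided, with Benjamini-Hochberg adjustment over all genes tested. Fold changes understate low genes. Tables used Python 3.11.15, and the fit was checked on simulated data.

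Members and lists were chosen with earlier results of these data known. Full values were given by rule for the 5 immune members, Psmb5, Psmb6, Psmb7 and the 3 largest called changes each way among the rest, and up to 3 genes each way from each pathway list. Psma6, Psmd5, Psmd7, Psmd12, Psme3, Psmg4, Pomp, Nfe2l1, Nfe2l2, Ifngr1 and Tap2 were added after their values were seen. Some genes of the lists are not reported here and are left out of their counts and sums.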

Additional observations from a re-analysis of the deposited data

Results flagged for a closer look

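In 5 of 38 groups of 4 labelled libraries, 1 library stood apart from the other 3 (Dixon's test, which flags about 5% of groups by chance). In ex vivo CLP, Psma6 was 207 in replicate 2 against 147 to 155 in the others, and Psme2 was 66.7 in replicate 2 against 103.7 to 108.1. In cCLP, replicate 1 stood apart for Psmb10 at 110.9 against 48.3 to 55.7, for Psme2 at 109.0 against 59.8 to 61.1, and for the log2 ratio of Psmb10 to Psmb7 at -0.49 against -1.62 to -1.53. All 5 values belong to the pair of libraries that went against their labels in whole profiles, so these groups are not independent of each other.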

How the results depend on the processing

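Over all 8 libraries, 0 members passed under every scaling, pseudocount, filter and left-out single library, and 6 rose and 7 fell without ex vivo CLP 2 and cCLP 1. Over the 6 libraries, all 5 immune members fell under each of the 15 alternatives. Leaving out 1 library gave 3 to 4 members higher and 6 to 8 lower, and the log2 fold change of Psmb7 ranged from -0.17 to 0.011. Leaving out 1 of 8 libraries moved the difference in log2 ratio from -0.98 to -0.52 for Psmb8 to Psmb5, from -0.55 to -0.07 for Psmb9 to Psmb6 and from -0.78 to -0.40 for Psmb10 to Psmb7.

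With the replicate number as a block, 0 members passed over the 8 libraries and 4 rose and 8 fell over the 6, with Psma6 and Psmd12 lost and Psmg4 gained. The pair ratios in the block have the same differences of -0.73, -0.29 and -0.51 by construction, with adjusted p = 0.188, 0.5 and 0.188 by an exact sign-flip test (smallest p 0.125). The correlation of deviations within a number was 0.543, 0.836, -0.533 and -0.846, so the numbers are not shown to pair the libraries.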
